A study of Mus musculus with 6 samples.

Results

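The genes described here are 50 genes of the G2 phase and of mitosis, chosen by name from a list of cyclins and entry kinases, checkpoint and anaphase factors, kinetochore and centromere proteins, condensins, spindle motors and cytokinesis factors. All 50 of the 50 symbols were found among the 24930 genes of the table, and all 50 passed the filter for the test (mean level of 1 unit or more), as did 11837 genes in all. Messenger RNA was measured in mouse crypt epithelium, the sheet of cells in the pits between the intestinal villi. 3 libraries came from β-cateninGOF/+ crypts, called mutant below, in which 1 gain-of-function allele of β-catenin had been induced, and 3 from control crypts, sampled on day 4 of that induction. The sources used here do not give the driver of the induction, the genotype and treatment of the controls, the age of the mice or the region of the intestine.

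Cells that enter mitosis first build up cyclins A and B, which activate the kinase Cdk1. Condensins and topoisomerase then compact the chromosomes, kinetochores attach them to the spindle, and a checkpoint holds the anaphase-promoting complex back until every chromosome is attached. Cytokinesis ends the cycle, and most of the messenger RNAs concerned are made in G2 and degraded on exit from mitosis. In the intestine such transcripts come mainly from the transit-amplifying progenitors and the stem cells of the crypt, while Paneth cells and enterocytes on the villus no longer divide.

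The promoters of these genes are known for a pair of elements that the MuvB and NF-Y complexes bind, the cell cycle homology region (CHR) and the CCAAT box, so stretches of 6 promoters are shown to let the shared letters be seen. Promoter windows from 250 bases before to 50 after a start site were taken from RefSeq (GRCm38.p6) for 42 of the members, and Ccna2, Cdc25c, Foxm1, Tpx2, Aurkb, Incenp, Smc4 and Kif20a had no entry. The searched letters were TTTGAA and TTCGAA for the CHR and CCAAT for the CCAAT box, on both strands. The stretches below run from 150 bases before the start site to 30 after it, 5′ to 3′, with these letters in capitals. Bub3 has a further start site, whose stretch (chr7:131560344-131560523) holds neither motif, and a gene was counted where any of its windows held the letters. Matches in a window but outside the stretch shown were counted too. The CHR match of Plk1 is such a case, so Plk1 counts as holding both.
Ccnb2 (chr9:70421525-70421704, minus strand): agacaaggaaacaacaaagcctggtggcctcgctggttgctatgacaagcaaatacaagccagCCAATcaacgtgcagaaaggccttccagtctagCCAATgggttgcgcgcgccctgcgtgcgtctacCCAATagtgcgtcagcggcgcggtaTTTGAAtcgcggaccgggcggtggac
Cdk1 (chr10:69352883-69353062, minus strand): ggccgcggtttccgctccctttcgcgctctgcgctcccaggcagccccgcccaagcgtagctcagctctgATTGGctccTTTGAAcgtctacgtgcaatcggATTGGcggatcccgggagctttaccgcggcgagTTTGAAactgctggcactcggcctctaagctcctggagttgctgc
Mki67 (chr7:135716350-135716529, minus strand): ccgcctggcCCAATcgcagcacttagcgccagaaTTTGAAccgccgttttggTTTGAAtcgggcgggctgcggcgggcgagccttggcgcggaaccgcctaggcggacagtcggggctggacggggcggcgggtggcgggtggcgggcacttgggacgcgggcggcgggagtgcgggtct
Bub3 (chr7:131560220-131560399, plus strand): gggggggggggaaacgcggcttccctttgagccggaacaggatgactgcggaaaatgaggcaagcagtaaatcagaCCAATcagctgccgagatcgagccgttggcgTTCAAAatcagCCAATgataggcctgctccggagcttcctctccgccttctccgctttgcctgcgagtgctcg
Plk1 (chr7:122159285-122159464, plus strand): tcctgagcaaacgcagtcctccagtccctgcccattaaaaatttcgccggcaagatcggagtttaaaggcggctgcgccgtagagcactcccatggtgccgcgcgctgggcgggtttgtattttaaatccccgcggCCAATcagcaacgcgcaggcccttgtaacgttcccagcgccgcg
Pttg1 (chr11:43425952-43426131, minus strand): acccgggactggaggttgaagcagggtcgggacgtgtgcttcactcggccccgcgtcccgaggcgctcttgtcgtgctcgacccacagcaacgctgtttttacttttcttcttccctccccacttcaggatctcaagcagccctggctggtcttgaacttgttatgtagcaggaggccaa
Of the 42 members, 32 held a CHR match (76.2%) and 32 a CCAAT box (76.2%), and 29 held both in 1 window (69.0%). Among the 9418 tested genes of the series with a window, 16.7% held a CHR match, 43.4% a CCAAT box and 7.07% both. A list of 38 DNA replication genes, which are transcribed earlier in the cycle, had both in 16.7% of 30 genes with a window, and 15 genes of the anaphase-promoting complex (core subunits and the coactivator Fzr1) in 0 of 14. Letters of the E2F site (TTTGGCGC, TTTCCCGC, TTTGCCGC or TTTCGCGC, both strands) were in 43.3% of the replication genes, 7.14% of the members and 4.74% of all tested genes. These are matches of letters and do not show a bound site. The members with both motifs had a median log2 difference between mutant and control of -0.23 (29 genes), and the other members with a window had -0.33 (13 genes).

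Levels are in the units of the deposited normalized table, and the number of reads behind them is unknown. From the spacing of very low values, a unit stood for fewest reads in mutant replicate 3 and most in control replicate 3 (relative values of 0.886 and 1.42). At such a step the value was lower for longer transcripts (Spearman rho of -0.57 across 333 genes, which are not independent), so levels are taken as per length. By Xist and Y-linked genes, 2 libraries of the control group and 1 of the mutant group were male. Each group thus held at least 2 animals. The labels do not say that each library was a separate animal, so p-values measure only spread among libraries, some of which may be technical. Epithelial markers (Epcam, Cdh1, keratins and others) summed to between 4680.1 and 7111 units per library, and 6 endothelial markers to at most 2.35.

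No member passed the test between mutant and control crypts. Of 50 members, 0 were called higher and 0 lower at an adjusted p under 0.05 in limma, against 0% and 0.0169% of all 11837 genes tested. With no adjustment, 1 member, Pttg1, had a p under 0.05 and a lower mean (all genes: 3.59%), and 0 had a higher one (all genes: 4.72%). Means were higher in mutant libraries for 9 members and lower for 41 (all genes: 52.7% lower), and the median log2 difference was -0.23, against -0.02 over all genes. The differences ran from -0.81 for Nusap1 to 0.31 for Plk1, with standard errors of 0.17 to 0.49, and adjusted p in limma from 0.589 to 0.99. In RNA taken from many crypt cells together, fewer dividing cells and less of these RNAs per cell cannot be told apart.

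The lower means rested largely on 2 libraries. Mutant replicate 3 had the lowest value of the 6 libraries for 47 of 50 members (all tested genes: 36.4%), and control replicate 2 had the highest for 38 (all tested genes: 23.9%). In mutant replicate 3 the members stood at a median of 51.9% of the control mean, from 22.8% for Cenpf to 95.7% for Ckap2, while the median over all tested genes was 94.9%. The mean of mutant replicates 1 and 2 stood at a median of 103% of the control mean, from 51.5% for Pttg1 to 149% for Plk1. Summed over the 50 members, the control libraries had 1148, 1629.7 and 1053 units and the mutant libraries 1205, 1495 and 702. Mutant replicates 1 and 2 thus lay within the range of the controls, and mutant replicate 3 alone below it.

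**Figure D1:**
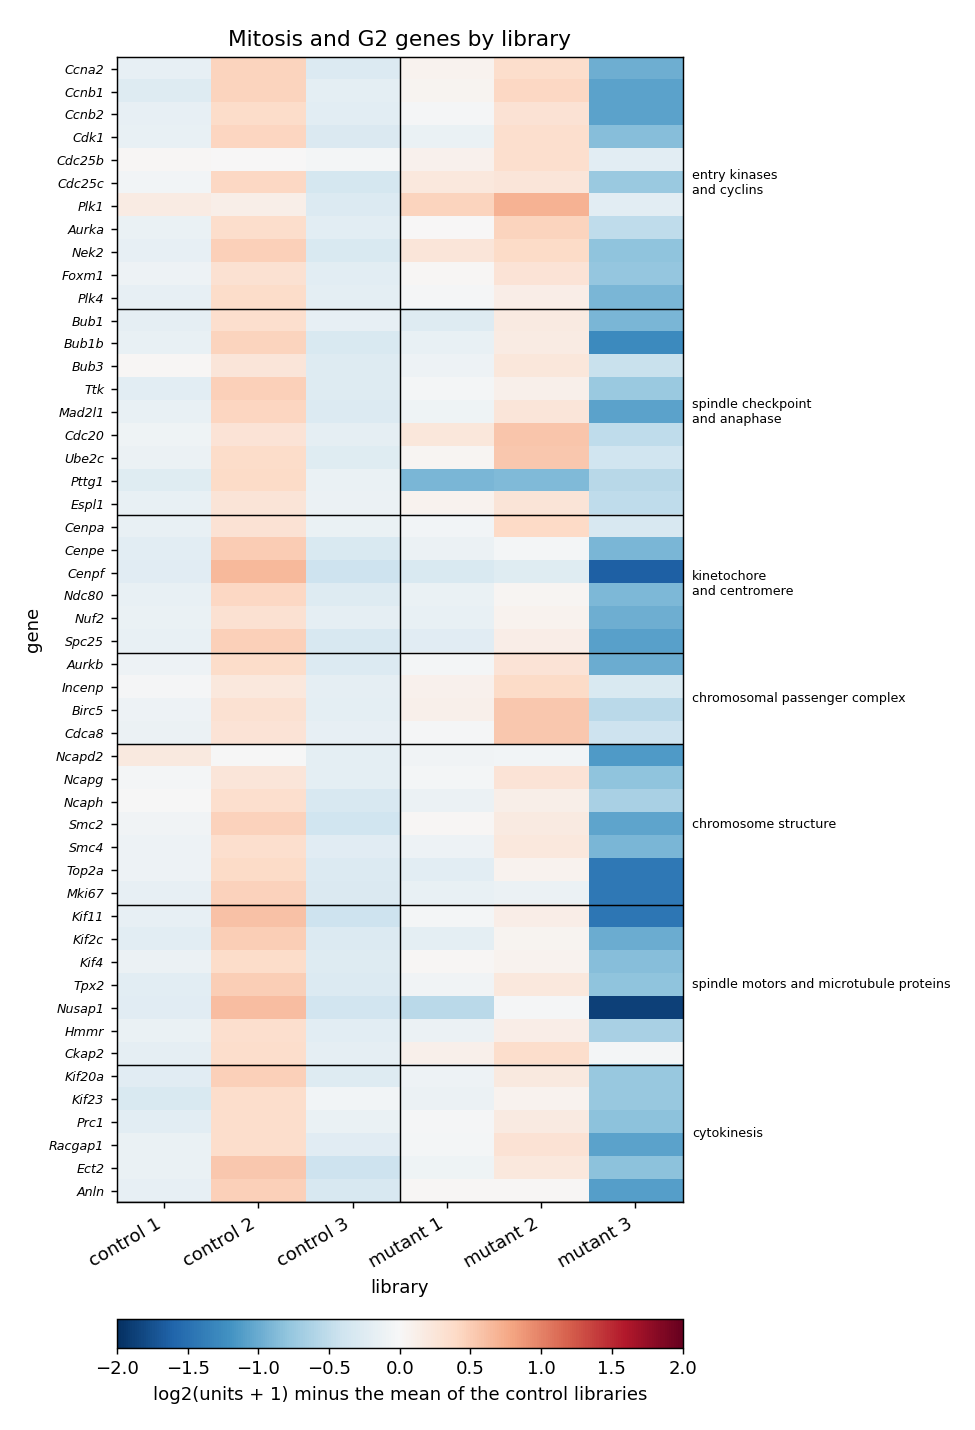
Each row is 1 of the 50 members, ordered by role, and each column 1 library; colour gives log2(units + 1) minus the mean of the 3 control libraries, from blue (lower) to red (higher). Mutant replicate 3 is lowest in 47 rows and control replicate 2 highest in 38.

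Without mutant replicate 3 the median log2 difference was 0.06, with 37 members higher and 13 lower and 0 called in limma. With no adjustment, 1 member then had a p under 0.05 and a higher mean, Plk1 (all genes: 3.55%), and 1 a lower mean, Pttg1 (all genes: 2.64%). Without control replicate 2 it was -0.05, with 20 higher and 30 lower. With any other library left out it lay between -0.45 and -0.32. Within the libraries read as male, the median was -0.17 (8 higher, 42 lower), and within those read as female -0.08 (16 higher, 34 lower). In each of these comparisons 1 group was a single library. With sex as a term in limma and all libraries kept, the median was -0.13 (13 higher, 37 lower).

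**Figure D2:**
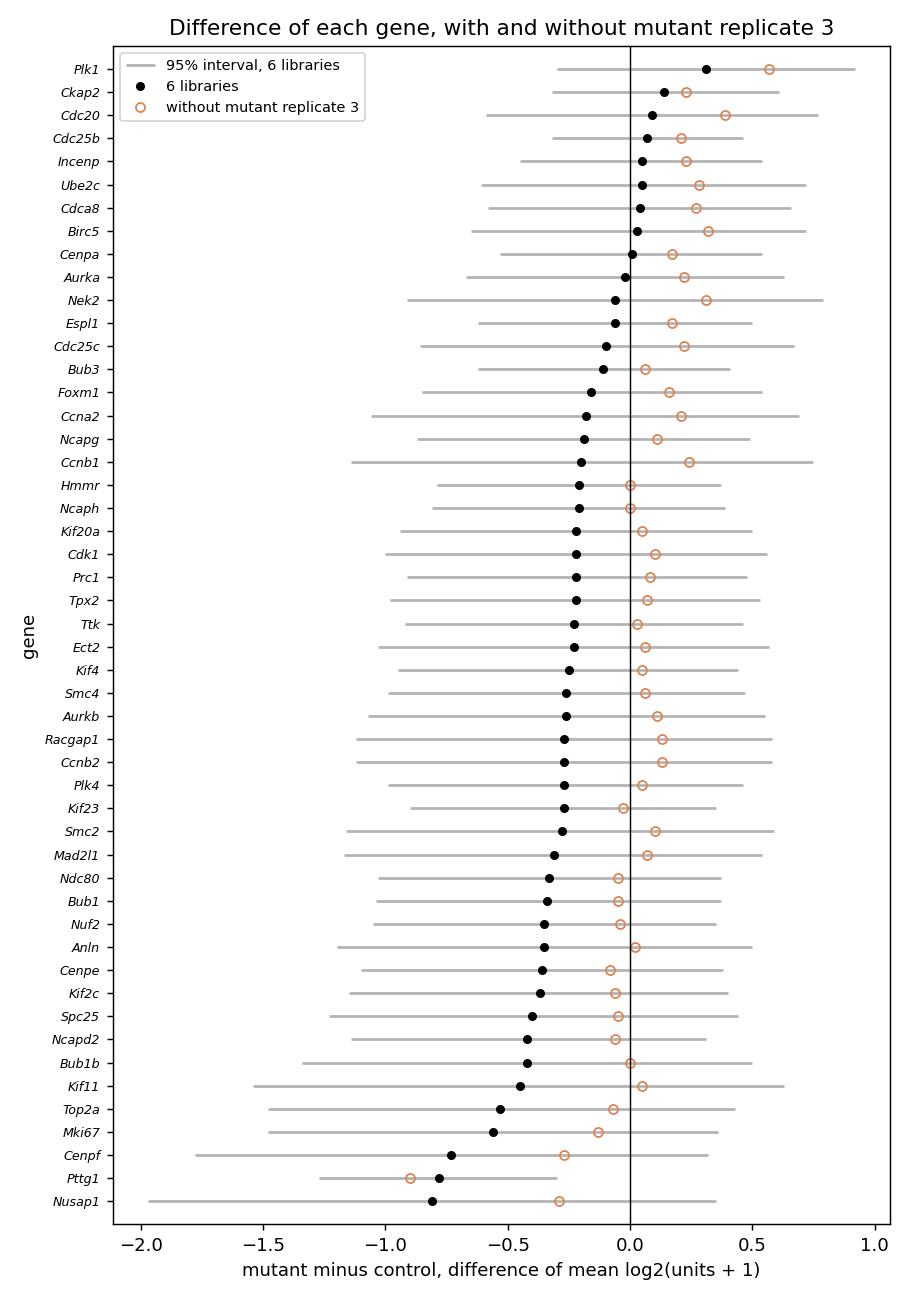
Log2 difference of each of the 50 members, mutant minus control, on the log2(units + 1) scale; black points use all 6 libraries with the 95% interval of the limma fit in grey, and open points leave out mutant replicate 3. The grey interval crosses 0 for every member except Pttg1, and 37 open points lie above 0.

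Of 11 cyclins and entry kinases, 8 were highest in control replicate 2, and Plk1, Aurka and Cdc25b in mutant replicate 2. Cdk1, the kinase whose activity defines mitosis, had 22.8, 34.4 and 20.6 units in control replicates 1 to 3 and 22.9, 32.1 and 13.6 units in mutant replicates 1 to 3. Ccnb1, its cyclin B1 partner, had 26.6, 43.8 and 27.7 units in control and 33.1, 43.0 and 14.7 in mutant libraries. The groups overlapped for both, and the log2 differences were -0.22 ± 0.33 (SE) and -0.20 ± 0.40, with adjusted p in limma of 0.799 and 0.857. Without mutant replicate 3 both differences turned to 0.10 and 0.24. Ccnb1 is also uncertain, since 4 pseudogenes match its transcript over at least 300 bases at 96.6 to 99.2% identity.

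Foxm1, the transcription factor that drives many genes of G2, had 12.9, 17.5 and 11.9 units in control and 14.2, 17.1 and 7.68 in mutant libraries. Plk4, which licenses centriole duplication, had 7.46, 11.2 and 7.25 units in control and 8.36, 9.36 and 4.04 in mutant libraries. Both overlapped between the groups, at log2 differences of -0.16 ± 0.29 and -0.27 ± 0.31 (adjusted p in limma of 0.843 and 0.734). Plk1, a kinase that acts from mitotic entry to cytokinesis, had 32.9, 31.8 and 24.0 units in control and 40.2, 48.0 and 25.3 in mutant libraries. It was 1 of 3 members whose lowest value was not in mutant replicate 3, and mutant replicates 1 and 2 lay above every control. The log2 difference was 0.31 ± 0.26, with a 95% interval from -0.30 to 0.92 (adjusted p of 0.65 in limma), and 0.57 without mutant replicate 3 (unadjusted p of 0.0201 in limma). Cdc25b, the phosphatase that starts Cdk1 activation, had the smallest standard error of the 50 members, 0.17, and lay between 13.5 and 20.2 units in the 6 libraries. Aurka, Ccna2, Ccnb2, Cdc25c and Nek2, the other members of the group, had log2 differences from -0.27 to -0.02.

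Among spindle checkpoint and anaphase genes, Pttg1 stood apart from all other members. It encodes securin, which holds the protease separase inactive until anaphase. Pttg1 had 34.2, 53.2 and 37.1 units in control libraries and 21.1, 21.7 and 27.4 in mutant libraries. It was the only member with every mutant value below every control value, against 8.37% of all tested genes, while 0 members had every mutant value above (all genes: 8.34%). The log2 difference was -0.78 ± 0.21, with a 95% interval from -1.27 to -0.30, an unadjusted p of 0.00672 and an adjusted p of 0.589 in limma. It did not pass in any of the 15 alternative fits either, where the difference lay between -0.91 and -0.60 and the adjusted p between 0.0893 and 0.921. Mutant replicate 3, lowest for most members, had the highest Pttg1 value of the mutant group. No other gene's transcript matched that of Pttg1 at 95% identity over 300 bases.

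Espl1, which encodes separase itself, had means of 6.29 ± 1.20 units in control and 6.10 ± 1.83 in mutant libraries (SD, n = 3 each). Ube2c, the ubiquitin-conjugating enzyme of the anaphase-promoting complex, had the highest mean level of all members, at 79.6 units. Its values were 69.9, 98.3 and 63.8 units in control and 77.9, 110.5 and 57.1 in mutant libraries, a log2 difference of 0.05 ± 0.28 (adjusted p of 0.95 in limma). Cdc20, which activates the complex, had means of 36.3 ± 6.49 and 40.2 ± 14.3 units. Espl1, Ube2c and Cdc20 all overlapped between the groups.

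Checkpoint kinase Bub1 had 8.04, 11.9 and 8.12 units in control and 7.5, 10.5 and 4.40 in mutant libraries. Bub3, which carries Bub1 and BubR1 to kinetochores, had 39.0, 45.8 and 31.9 units in control and 35.7, 45.1 and 28.1 in mutant libraries. Bub3 kept 72.1% of the control mean in mutant replicate 3 and Bub1 47.1%, and neither passed (log2 differences of -0.11 ± 0.22 and -0.34 ± 0.30, adjusted p in limma of 0.854 and 0.663). The checkpoint genes Bub1b, Mad2l1 and Ttk had log2 differences of -0.42, -0.31 and -0.23, which without mutant replicate 3 were 0.00, 0.07 and 0.03.

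**Figure D3:**
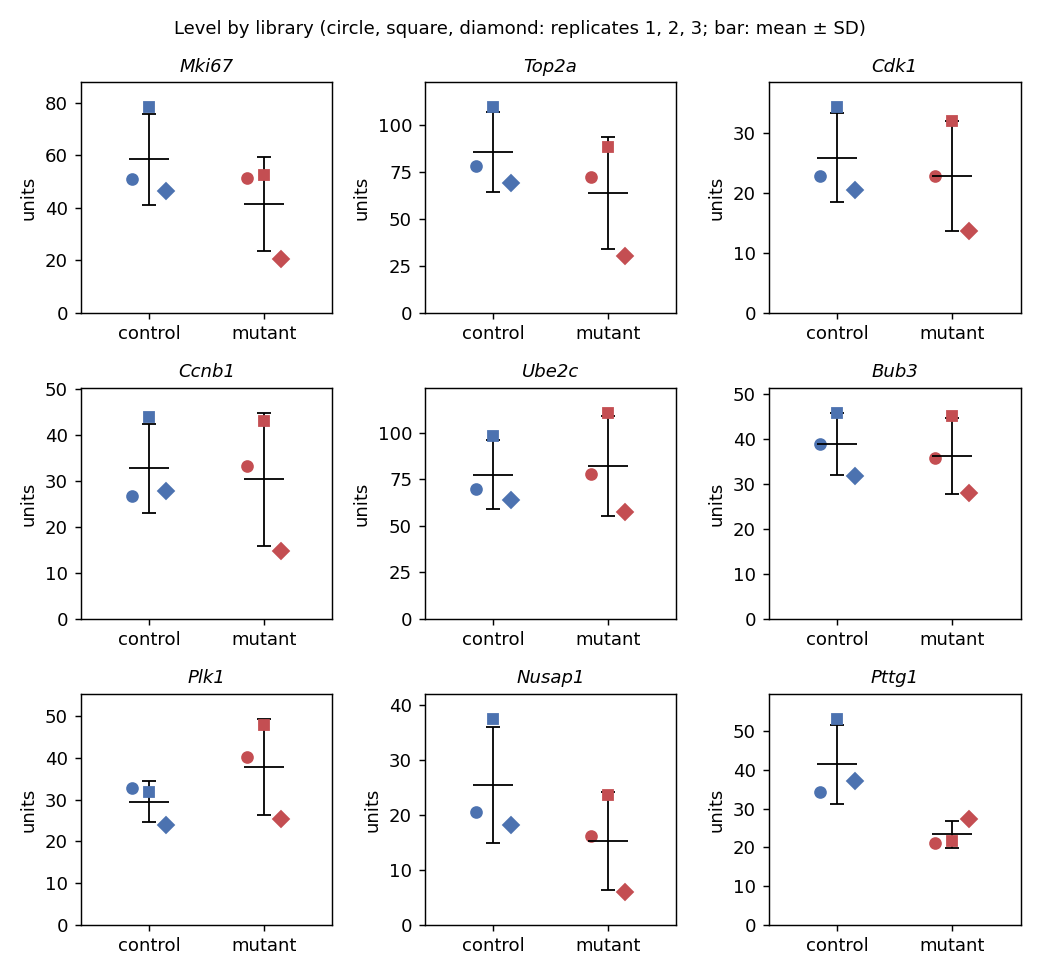
Level in units of 9 members in each library, with bars for the mean and SD of each group (n = 3); circles, squares and diamonds mark replicates 1, 2 and 3. For Pttg1 the 3 mutant libraries, at 21.1 to 27.4 units, lie below the 3 controls, while the groups overlap for the other 8.

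Of 6 kinetochore and centromere genes, 5 had lower means in mutant libraries and 1, Cenpa, did not. Cenpf, a large protein of the outer kinetochore, had 7.22, 14.0 and 6.17 units in control and 6.79, 7.12 and 2.08 in mutant libraries. Nuf2, a subunit of the NDC80 complex that grips microtubules, had 11.5, 16.0 and 11.1 units in control and 11.4, 13.4 and 5.96 in mutant libraries. Both overlapped between the groups, with log2 differences of -0.73 ± 0.44 and -0.35 ± 0.29 (adjusted p in limma of 0.597 and 0.655). The other subunits Ndc80 and Spc25 had differences of -0.33 and -0.40 and the kinesin Cenpe -0.36. Cenpa, the histone variant that marks centromeres, had means of 34.4 ± 6.38 and 35.1 ± 9.35 units.

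The chromosomal passenger complex, which corrects wrong attachments and later directs cleavage, was the group with the smallest shortfall in mutant replicate 3 by mean score (-0.57, with the 50 members at -0.84). Aurkb, its kinase, had 24.7, 34.6 and 21.8 units in control and 25.7, 32.1 and 12.8 in mutant libraries. Incenp, its scaffold, had 26.1, 31.0 and 23.4 units in control and 28.2, 34.9 and 21.3 in mutant libraries. Birc5, or survivin, had 62.6, 83.1 and 58.7 units in control and 72.5, 98.0 and 46.2 in mutant libraries. The subunits thus differed in mutant replicate 3, where Aurkb stood at 47.2% of the control mean, Birc5 at 67.8%, Cdca8 at 73.5% and Incenp at 79.3%. The log2 differences of Aurkb, Incenp and Birc5 were -0.26 ± 0.34, 0.05 ± 0.21 and 0.03 ± 0.29, and none of them passed (adjusted p in limma of 0.769, 0.938 and 0.968).

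All 7 genes of chromosome structure had lower means in mutant libraries, and 0 passed. Mki67, which coats mitotic chromosomes and encodes the proliferation marker Ki-67, had 50.9, 78.3 and 46.2 units in control and 51.3, 52.3 and 20.6 in mutant libraries. Top2a, the topoisomerase that untangles sister chromatids, had 78.3, 109.5 and 69.0 units in control and 72.5, 88.2 and 30.4 in mutant libraries. Mutant replicate 3 held 35.3 and 35.5% of their control means, and the log2 differences of -0.56 ± 0.39 and -0.53 ± 0.40 (adjusted p in limma of 0.615 and 0.63) went to -0.13 and -0.07 without it. Ncapd2, a condensin subunit, had 32.4, 27.8 and 24.4 units in control and 26.6, 27.0 and 12.3 in mutant libraries, a difference of -0.42 ± 0.31 (adjusted p of 0.625 in limma). It was the only member with its highest value in control replicate 1. The condensin genes Ncapg, Ncaph, Smc2 and Smc4 had differences from -0.28 to -0.19, and 0.00 to 0.11 without mutant replicate 3.

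Spindle motors and microtubule proteins held both the lowest and one of the highest differences. Nusap1, which bundles microtubules around chromosomes, had 20.5, 37.4 and 18.2 units in control and 16.2, 23.6 and 5.92 in mutant libraries. Kif2c, a kinesin that takes microtubule ends apart, had 10.7, 18.2 and 10.2 units in control and 10.9, 13.2 and 5.82 in mutant libraries. Their log2 differences were -0.81 ± 0.49 and -0.37 ± 0.33 (adjusted p in limma of 0.596 and 0.662), with overlapping groups, and -0.29 and -0.06 without mutant replicate 3. Ckap2, a microtubule-stabilising protein, had 10.6 units in mutant replicate 3, within the control range of 9.49 to 14.2 units. Kif11, the motor that separates the spindle poles, stood at 32.4% of the control mean there, and Kif4, Tpx2 and Hmmr at 50.1, 52.9 and 60.8%.

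The 6 cytokinesis genes had the narrowest span of log2 differences of the 7 roles, from -0.35 to -0.22. Kif23, the motor subunit of centralspindlin, had 19.2, 30.7 and 23.0 units in control and 21.8, 25 and 13.7 in mutant libraries. Anln, the scaffold of the contractile ring, had 8.77, 14.2 and 7.76 units in control and 10.1, 10.1 and 4.11 in mutant libraries. Neither passed (log2 differences of -0.27 ± 0.26 and -0.35 ± 0.36, adjusted p in limma of 0.687 and 0.704). Racgap1, Ect2, Prc1 and Kif20a stood at 45.4 to 54.9% of the control mean in mutant replicate 3 and at 101 to 109% in the mean of the other two mutant libraries.

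In 36 members control replicate 2 was highest and mutant replicate 2 next, but members did not share the size of the shortfall, which was described further after the values were seen. When each member was set against the mean of all 50 in the same library, Plk1, Aurka, Foxm1, Cdc20, Ube2c, Incenp, Birc5 and Ckap2 were above every control in every mutant library (8 members; all tested genes set against the same mean: 3.11%). Cenpf, Ndc80, Nuf2, Top2a, Mki67, Kif2c and Nusap1 were below (7 members; all tested genes: 1.61%). The members' own mean sets this scale, so some members had to lie on each side, and the split was not tested. Most members rose and fell together, so subtracting their mean removes shared variation from them but not from other genes. The shares over all tested genes are therefore not a like background for the 8 and 7 members. Members with longer transcripts had lower percentages in mutant replicate 3 (Spearman rho of -0.44 across the 50 members, lengths of 1466 to 11130 bases). The part of transcript length in the split was not tested.

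Over the 6 libraries, log2(units + 1) of 43 members had a Pearson correlation above 0.9 with the mean z-score of the other members. The median was 0.974, and the lowest values were 0.212 for Pttg1, 0.632 for Plk1 and 0.686 for Ckap2. Among 8835 other genes with a mean of at least 5 units, those most like the members were Jpt2 and Anp32e (0.997 each), Farsb (0.996), Dek and H2afy (0.995 each), Hmgb2, Zdhhc2 and Noa1 (0.994 each), and Mrpl10 and Hspa9 (0.993 each). Hmgb2, a chromatin protein abundant in dividing cells, had 106, 166 and 102 units in control and 109, 147 and 57.5 in mutant libraries. Such values over 6 libraries describe these libraries alone, and mutant replicate 3 and control replicate 2 weigh most in them.

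Of a list of 75 further mitosis genes, 0 were called in either direction in limma, while 2 had a higher mean (all genes: 4.72%) and 1 a lower one (all genes: 3.59%) with an unadjusted p under 0.05, shares below those of all genes. Means were higher for 12 and lower for 63 (all genes: 52.7% lower). The median log2 difference was -0.21, and 0.02 without mutant replicate 3. The microtubule-associated genes Gtse1 and Psrc1 had higher means. Gtse1 had 6.89, 7.56 and 5.74 units in control and 9.89, 15.8 and 22.7 in mutant libraries (log2 difference of 1.09 ± 0.28 and limma adjusted p of 0.589). Psrc1 had 4.15, 4.29 and 3.57 units in control and 5.90, 10.3 and 40.1 in mutant libraries (log2 difference of 1.56 ± 0.60 and limma adjusted p of 0.589). Both were highest in mutant replicate 3, where most members were lowest, and the groups did not overlap. They were the only 2 of the 75 with every mutant value above every control value (all genes: 8.34%). Every mutant value lay below for 1 of the 75 (all genes: 8.37%).

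The 15 genes of the anaphase-promoting complex, 14 core subunits and the coactivator Fzr1, had a median log2 difference of -0.03. In limma 0 of 15 were called (all genes: 0% higher and 0.0169% lower), and 5 were higher and 10 lower (all genes: 52.7% lower). Every mutant value was above every control value for 2 of the 15 (all genes: 8.34%) and below for 0 (all genes: 8.37%). The mean score of the 15 genes in mutant replicate 3 was -0.24, against -0.84 for the members. Replication genes had a median of -0.19 and a score of -0.58 in mutant replicate 3. Of the 38, 0 were called, and 6 were higher and 32 lower (all genes: 52.7% lower). In 1 of them every mutant value was above every control value (all genes: 8.34%), and in 0 below (all genes: 8.37%). Of 18 regulators of the programme, such as Mybl2, the E2F factors and NF-Y subunits, 0 were called. Their means were higher for 6 and lower for 12 (all genes: 52.7% lower), with a median of -0.19. Rbl2, a repressor of the programme in resting cells, had 11.1 ± 0.919 units in control and 8.13 ± 1.69 in mutant libraries (SD, n = 3 each), with no overlap and an adjusted p of 0.589 in limma. Every mutant value lay below every control value for 3 of the 18 regulators (all genes: 8.37%) and above for 0 (all genes: 8.34%).

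Of 12 genes that hold back mitotic entry, 0 were called in limma. With an unadjusted p under 0.05 there were 4 with a higher mean (all genes: 4.72%) and 0 with a lower one (all genes: 3.59%). Of the 12 means, 8 were higher and 4 lower (all genes: 52.7% lower). The median log2 difference was 0.32, and 0.20 without mutant replicate 3. Gadd45b, a stress-induced inhibitor of Cdk1, had 3.32, 3.89 and 5.18 units in control and 6.79, 6.82 and 9.66 in mutant libraries. Ccng1, the cyclin G1 gene, had 22.9, 29.6 and 23.3 units in control and 34.7, 42.5 and 86.6 in mutant libraries. In both, mutant values lay above all controls (adjusted p of 0.589 in limma), and mutant replicate 3 was the highest library. In 4 of the 12 genes every mutant value lay above every control value (all genes: 8.34%), and in 0 every mutant value lay below (all genes: 8.37%).

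Markers of other cells also moved with the libraries. In mutant replicate 3, 12 enterocyte markers summed to 26047 units, against 4415 to 13530.5 in the other 5 libraries, and 10 crypt stem cell markers to 178, against 644 to 1477. Olfm4 made up most of the latter sum outside mutant replicate 3 (472 to 1195 units, against 54.6 there), while Axin2 was highest in that library (35.4 units) and Sox9, at 13.5 units, lay within the control range. Of the enterocyte markers, Sis and Lct, at 286 and 105 units in mutant replicate 3, lay within the control range, and the others were highest there. The 10 Paneth cell markers summed to 44959 units there and to 64633 to 428827 elsewhere, and 12 immune markers to 197, against 47.2 to 110.4. The Paneth markers Mmp7 and Mptx2, at 575 and 1341 units there, were lower in mutant replicate 1 (419 and 1113 units). Mmp7 was also lower in control replicate 3 (519 units). The other Paneth markers were lowest in mutant replicate 3. The immune marker Itgam was lowest in mutant replicate 3 (3.12 units), and the other immune markers were highest in it. Stromal markers summed to 5.29 to 9.24 units in control and 21.5 to 49.9 in mutant libraries. Vim alone gave 4.53 to 6.49 units of the control sums and 6.71 to 14.8 of the mutant sums. Only 6 of the 12 stromal genes passed the filter for the test. In limma 0 of them were called (all genes: 0% higher and 0.0169% lower), and the lowest adjusted p was 0.0935, for Mgp. Of these 12 genes, Pdgfra was at 0 in all 3 controls and at 0.103 to 0.204 units in mutant libraries, while Pdgfrb overlapped between the groups (0.305 to 0.761 and 0.315 to 1.13 units). Of 7 smooth muscle markers, the sum was 2.05 to 3.84 in control and 3.95 to 12.5 in mutant libraries. Tagln, the only 1 that passed the filter, made up most of each sum. It overlapped between the groups (1.81 to 3.07 and 2.32 to 7.26 units, adjusted p of 0.6 in limma), as did Myh11 and Actg2. Acta2, Des, Cnn1 and Myl9 did not overlap, at levels of at most 1.48 units. The part of these cells in the values of the mitosis genes was not tested.

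**Figure D4:**
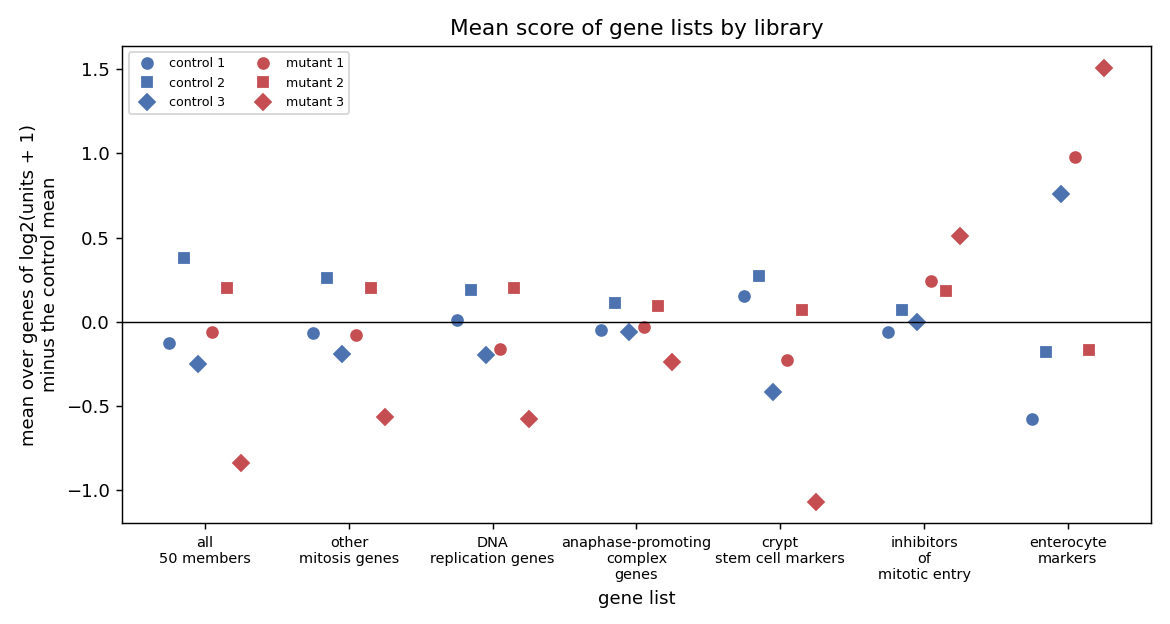
Mean over the tested genes of a list of log2(units + 1) minus the control mean, for each library; blue marks control and red mutant libraries, and circles, squares and diamonds replicates 1, 2 and 3. Mutant replicate 3 is lowest for the 50 members (-0.84), the other mitosis genes (-0.57), the replication genes (-0.58) and the stem cell markers (-1.07), and highest for inhibitors of mitotic entry (0.51) and enterocyte markers (1.51).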

How the data were processed

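Messenger RNA of mouse crypt epithelium was selected by poly-T beads before Illumina sequencing, as the labels' protocols state (3 mutant and 3 control libraries, grouped by sample title). The deposited table holds a signal, a normalized abundance per gene made by the authors; mutant columns carry a name for a heterozygous exon change and were assigned to it by number, since control is the other column name. The submitters' processing notes name the mm9 build, DESeq2 1.40.1 and kallisto 0.46.1, without roles; annotation and filters are not given there. Library totals ranged from 645225 to 1268771 units and 0 value columns lacked a sample.

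Values x were taken as log2(x + 1), and 11837 genes whose mean reached 1 unit were tested by limma 3.58.1 (trend on, R 4.3.3) for the group effect, with p adjusted over all of them by Benjamini-Hochberg and called under 0.05. Differences on this scale understate those of low genes. The fit was tested on simulated data. The members, gene lists and tests were chosen with earlier results of these data known. Values in every library are given for the 3 members with the highest mean, the 2 with the smallest p of each role, and Mki67, Top2a, Cdk1, Ccnb1, Plk1, Aurkb, Bub3 and Foxm1; of other pathway lists up to 2 genes with the smallest p are named, and the 10 genes most like the members by Pearson correlation. As alternatives, the fit was repeated with upper-quartile or median-of-ratios rescaling, a mean minimum of 5 or none, a replicate block, a sex term, array weights, another pseudocount (0.1 or 5) and each library left out. Differences of means within each sex, and values relative to the members' mean, were chosen after seeing the data.

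Transcripts of members were compared with all others of GENCODE (GRCm38) with BLAST+ 2.17.0. Matches of at least 95% over 300 bases were found for 9 members (Ccna2, Ccnb1, Kif20a, Kif4, Mad2l1, Ncapg, Ndc80, Prc1 and Racgap1), and exons of 16 overlap another gene, so these values may hold reads of another transcript; strandedness is not given. Coordinates are of GRCm38.p6 and were not set against the table. Software for tables and plots was pandas 2.3.3, NumPy 2.4.6 and matplotlib 3.10.9 under Python 3.11.15.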

Additional observations from a re-analysis of the deposited data

How the results depend on the processing

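In limma 0 of 50 members and 0 of 75 other mitosis genes were called in the fit with all libraries and in each of the 15 alternatives, except that a mean minimum of 5 left 57 of the 75 to test (0 called). The median log2 difference of the members lay between -0.25 and -0.01 under the alternatives that kept all libraries, with array weights at the upper end (23 higher, 27 lower). Leaving out a library gave -0.45 to 0.06. With a replicate block the median was -0.23, and 0 members were called. Each replicate number occurs once per group, so the block could not change a log2 difference. Same-numbered libraries share no label for an animal or a day, so the numbers were not taken as pairs. Their deviations correlated at -0.29, 0.33 and 0.32, and those of libraries with unlike numbers at -0.49 to 0.21. These values do not decide whether the numbers mark pairs. With array weights the differences of Ccnb1, Foxm1, Plk4 and Anln turned to 0.12, 0.06, 0.02 and 0.04; the cause was not tested. Leaving out a library turned the sign for 10 of the 21 members given library by library. The ranges were -0.51 to 0.24 for Ccnb1, -0.50 to 0.10 for Cdk1, -0.38 to 0.16 for Foxm1, -0.46 to 0.05 for Plk4, -0.27 to 0.06 for Bub3, -0.52 to 0.11 for Aurkb, -0.54 to 0.02 for Anln, -0.19 to 0.28 for Ube2c, -0.12 to 0.23 for Incenp and -0.21 to 0.32 for Birc5. Of all 50 members, 13 were lower and 2, Plk1 and Ckap2, higher in every fit. Over all genes, 2 were called with all libraries, 27 with array weights, and 0 to 4 in the other alternatives. Absolute depth is unknown, which limits what can be said of the lowest members.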
